A study of Mus musculus with 4 samples.

Results

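Amino acid transporter genes were taken as the protein-coding genes whose symbol begins with Slc1a, Slc3a, Slc6a, Slc7a, Slc36a, Slc38a or Slc43a. Of the 37620 gene identifiers counted, 62 carried such a symbol, and 22337 identifiers were protein-coding in all. Of these 62, 61 identifiers stood for 60 transporter genes, since Slc38a9 was annotated under 2 identifiers, and the remaining one was Slc7a6os, a gene named for its position beside Slc7a6. The rule left out 1 gene of the Slc38a subfamily, which was not analysed here. RNA-seq of 4 samples was used, 1 per condition. Cells of the mouse embryonic stem cell (mESC) line R1 were kept for 2 days in serum-containing, feeder-free medium under 1 of 3 conditions. In 2i-L the medium contained 3 µM CHIR99021, which inhibits GSK3, plus 1 µM PD0325901, which inhibits MEK, and no LIF. 2iJ held the same 2 inhibitors and a JAK inhibitor at 2 µM. 2iJ+B-A held everything in 2iJ together with BMP4 at 10 ng/ml and ALK5 inhibitor II at 10 µM, which blocks the Activin branch of signaling. The fourth sample was the trophoblast stem cell (TSC) line F4, labeled day 2 and given none of these treatments. Each cell type was represented by a single line, and the TSCs were grown by another protocol, so that line, lineage and medium cannot be told apart in any comparison with the TSCs. With 1 sample per condition there was no replicate check and no test between conditions.

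Amino acids cross membranes through carriers of several families. Slc7a proteins form either stand-alone cationic carriers for arginine and lysine or light chains that reach the cell surface bound to a heavy chain of the Slc3a family. Slc38a and Slc1a proteins concentrate glutamine, alanine, serine, cysteine or glutamate with the sodium gradient, Slc36a proteins work with protons and are found on lysosomes, and Slc43a proteins carry large neutral amino acids without exchange. The Slc6a prefix takes in carriers of glycine, proline and branched-chain amino acids and also carriers of taurine, creatine, GABA and monoamines, which are not protein amino acids. Intake by these carriers feeds protein synthesis and the signaling of mTORC1, and several carrier genes are known targets of ATF4, the transcription factor of the amino acid response.

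The 4 samples held between 33913984 and 36964392 read pairs on genes. Levels are given as CPM, counts relative to the library total with TMM scaling, and values in the 4 samples follow the order 2i-L, 2iJ, 2iJ+B-A and TSCs where the samples are not named. A signal of 3 counts, taken as the smallest detectable signal, corresponded to 0.0799 to 0.0902 CPM. The TSC sample had Pou5f1 at 1.34 CPM, against 658 to 899 CPM in the mESC samples, and Elf5 at 298 CPM, against 0.0301 to 0.133 CPM. All 7 TSC markers were past 2-fold higher in TSCs than in 2iJ, where 19.4% of all genes were. Their summed level was 344, 399, 1330 and 3520 CPM. In 2iJ+B-A against 2iJ, 4 were higher and 1 lower, where 5.81% and 3.17% of all genes were. Krt8 and Krt18, at 553 and 521 CPM, made up most of the sum in 2iJ+B-A. Hand1 rose there from 1.31 to 103.5 CPM and Cdx2 from 6.70 to 33.6 CPM. Eomes fell from 10.7 to 2.74 CPM, and Tfap2c went from 141.8 to 113.5 CPM. All 7 mESC markers stayed detected in every sample, with a summed level of 4490, 3550, 2630 and 788 CPM. Compared with 2iJ, 6 were lower and 0 higher in TSCs, where 17.6% and 19.4% of all genes were. Klf4 did not follow the sum, at 66.2, 32.2, 73.1 and 5.75 CPM. It was the only 1 called in 2iJ against 2i-L (lower) and in 2iJ+B-A against 2iJ (higher). Of 8 markers of differentiated trophoblast 7 were found, summed at 2.26, 6.41, 31.1 and 7.80 CPM. The single gene Gcm1 made up most of the sum in 2iJ+B-A. Its log2 ratio to 2iJ was 2.22 (2.01 to 2.43) there and -2.77 (-3.13 to -2.35) in TSCs. Of the 5 reaching 1 CPM, 2 were higher and 0 lower in 2iJ+B-A than in 2iJ, where 5.81% and 3.17% of all genes were. In TSCs against 2iJ, 3 were higher and 1, Gcm1, lower, where 19.4% and 17.6% of all genes were. Those higher in TSCs were Prl3d1, Syna and Ctsq. Prl3d1, Tpbpa, Ctsq and Prl2c2 were at 0 in all mESC samples. The 9 fibroblast markers summed to between 31.0 and 48.1 CPM in the mESC samples and to 8.43 CPM in TSCs, where Col1a2, Dcn and Lum were at 0. The 7 primitive endoderm markers, all detected in every sample, summed to 245, 369, 631 and 1990 CPM. Sparc and Col4a1 were 844 and 1099 CPM of this in TSCs. Of the 6 that reached 1 CPM, 4 were higher and 0 lower in TSCs than in 2iJ, where 19.4% and 17.6% of all genes were. Gata4 was among those higher, at 1.69 CPM in 2iJ and 23.5 in TSCs, while Sox17 had 19, 14, 87 and 5 counts. The part of these other cell types in the levels below was not tested, and in bulk RNA fewer cells of a type and less RNA per cell cannot be told apart.

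Of the 61 transporter identifiers, 41 reached 1 CPM in at least 1 sample. The 20 members below that level included Slc6a18 and Slc7a12, with 0 counts in all samples. The transporters together came to 1911, 1737, 1674 and 1942 CPM. The Slc38a subfamily had the highest sum everywhere, with 671, 679, 534 and 830 CPM, and was lowest in 2iJ+B-A and highest in TSCs. The Slc6a subfamily, at 374.5, 344, 471 and 223 CPM, was instead highest in 2iJ+B-A and lowest in TSCs. The Slc7a subfamily summed to 498, 422, 360 and 484 CPM, the Slc3a subfamily to 224, 177, 159 and 224 CPM and the Slc1a subfamily to 90.4, 62.1, 78.8 and 100.3 CPM. The Slc36a subfamily was at 21.6, 23.7, 27.3 and 46.8 CPM, its highest sum being in TSCs. The Slc43a subfamily was highest in 2iJ+B-A, at 31.5, 29.7, 43.7 and 33.9 CPM.

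**Figure D1:**
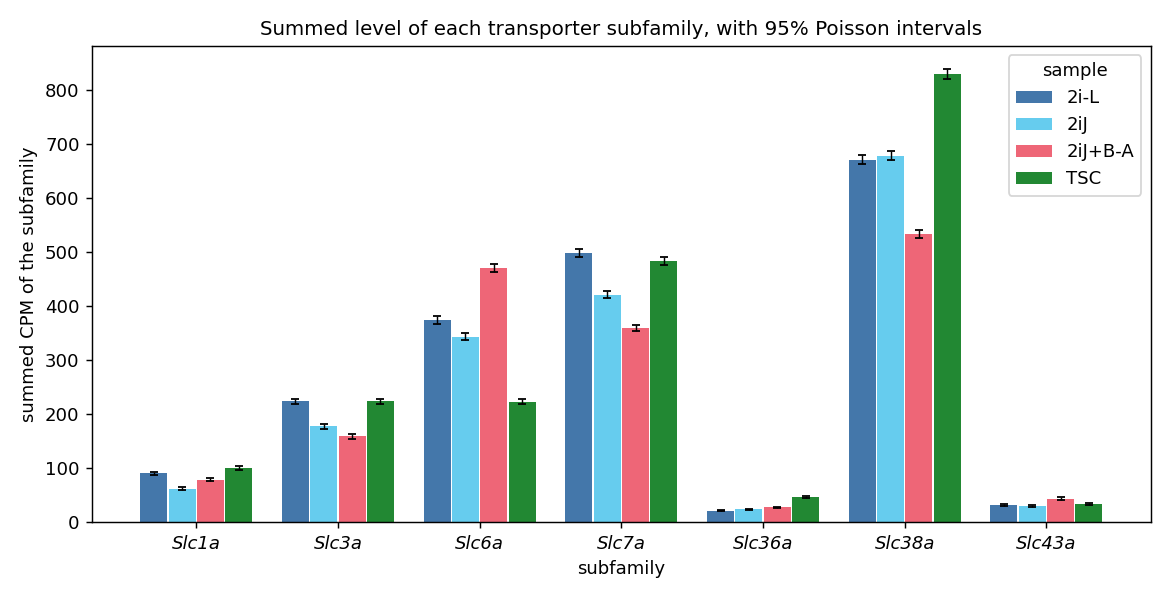
Summed CPM of each transporter subfamily (vertical axis, linear from 0) in the 4 samples (bars, 1 sample each), with 95% Poisson intervals for counting error only. The tallest Slc38a bar is TSC, at 830 CPM, and the tallest Slc6a bar is 2iJ+B-A, at 471 CPM.

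Between genes, levels can be compared only per length, here as CPM per kb of the merged exons of each gene. On this scale a few carriers made up most of the signal. The 5 genes with the highest level held 63.9%, 63.4%, 60.3% and 64.8% of the summed CPM per kb. Slc38a2, Slc3a2 and Slc7a5 were among these 5 genes in all samples. Slc38a2 led in 2iJ at 75.7 CPM per kb, Slc3a2 led in 2i-L at 75.6 and in 2iJ+B-A at 53.6, and Slc7a5 led in TSCs at 80.6. Slc6a6 and Slc7a6 completed the 5 genes in 2i-L and 2iJ, Slc6a6 and Slc6a8 in 2iJ+B-A, and Slc38a1 and Slc38a10 in TSCs. The place of Slc7a6 in 2i-L and 2iJ depends on the length taken. Slc38a10, next in order there, had 6.397 kb of merged exons but a longest transcript of 4578 bases.

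**Figure D2:**
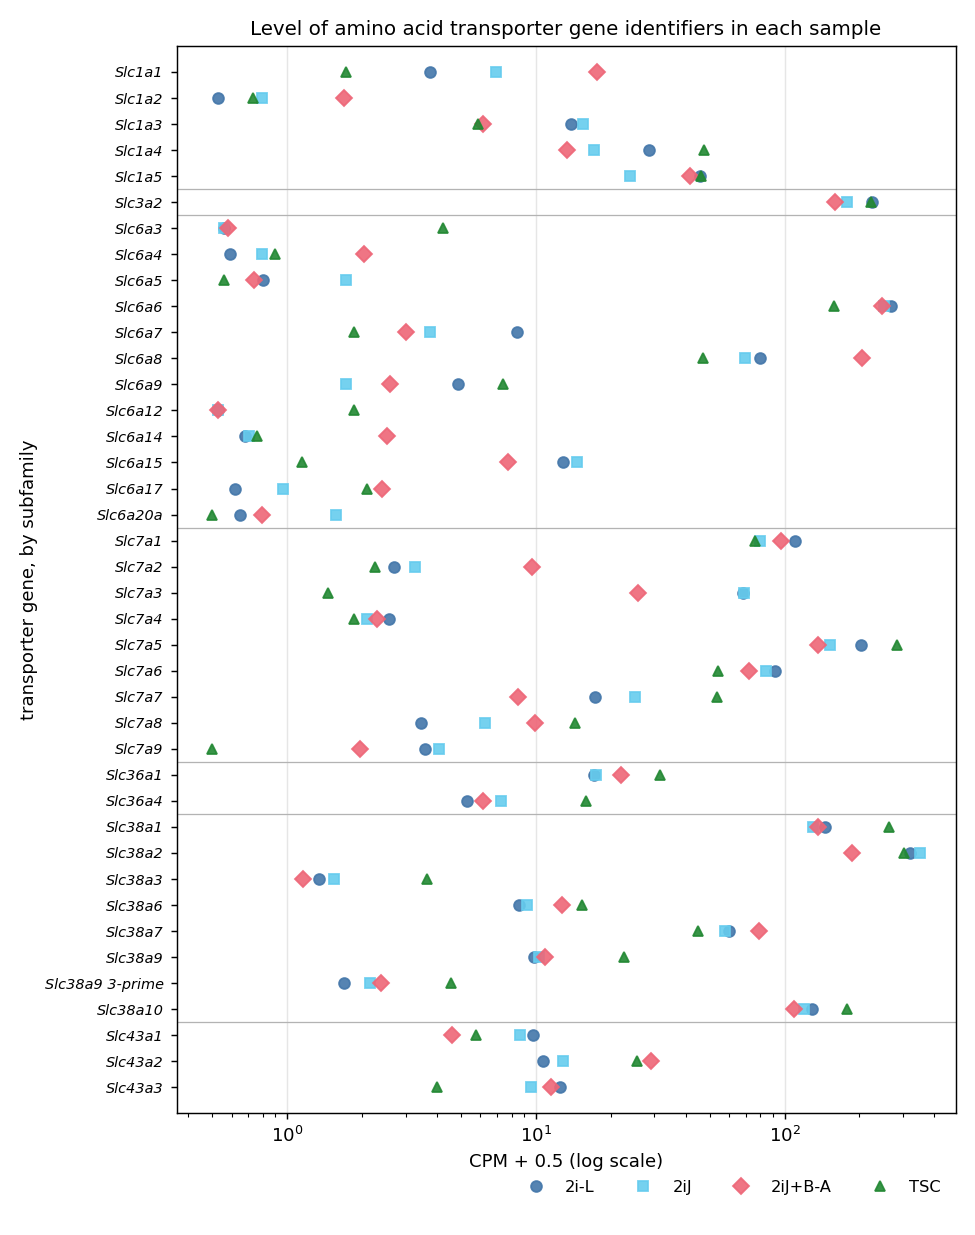
Level of transporter identifiers with at least 1 CPM in a sample (rows, by subfamily) as CPM + 0.5 on a log axis, with 1 symbol per sample. Slc7a3 in TSCs and Slc6a8 in 2iJ+B-A lie far from the other samples of their rows, at 0.969 CPM and 205 CPM.

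In each comparison a gene was called when the log2 ratio of CPM + 0.5 was at least 1 in size, written below as past 2-fold. Intervals are 95% Clopper-Pearson intervals of the log2 ratio and cover counting error only. All 3 comparisons share the 2iJ sample. Between 2i-L and 2iJ, which differ in the JAK inhibitor, 2 transporters were higher and 2 lower in 2iJ among the 41, or 9.76%, where 2.15% of all 14263 genes tested were called, 1.23% higher and 0.918% lower. Adding BMP4 and the ALK5 inhibitor to 2iJ gave 8 higher and 5 lower, or 31.7%, against 8.97% of all genes, of which 5.81% were higher and 3.17% lower. Between TSCs and 2iJ, 12 identifiers were higher and 10 lower in TSCs, or 53.7%, against 37.0% of all genes, of which 19.4% were higher and 17.6% lower. With 2i-L as the reference, 2iJ+B-A had 9 transporters higher and 6 lower, against 7.93% and 4.52% of all genes (12.5% together), and TSCs had 10 higher and 8 lower, against 19.4% and 17.4% (36.8% together). With 2iJ+B-A as the reference, TSCs had 9 higher and 11 lower, against 16.4% and 16.2% (32.6% together). Genes near the 1 CPM limit passed it through the sample in which they were high. Among the 28 identifiers with at least 5 CPM in a sample, 0 were higher and 2 lower in 2iJ than in 2i-L, or 7.14%, against 0.908% and 0.753% of all genes at that level (1.66% together). In 2iJ+B-A against 2iJ, 4 were higher and 3 lower, or 25%, against 5.18% and 2.65% (7.83% together). In TSCs against 2iJ, 7 were higher and 6 lower, or 46.4%, against 18.7% and 15.2% (34.0% together). The median log2 ratio of the 41 identifiers was 0.05 for 2iJ against 2i-L, 0.06 for 2iJ+B-A against 2iJ and 0.10 for TSCs against 2iJ, and that of all genes was between -0.002 and 0.005.

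**Figure D3:**
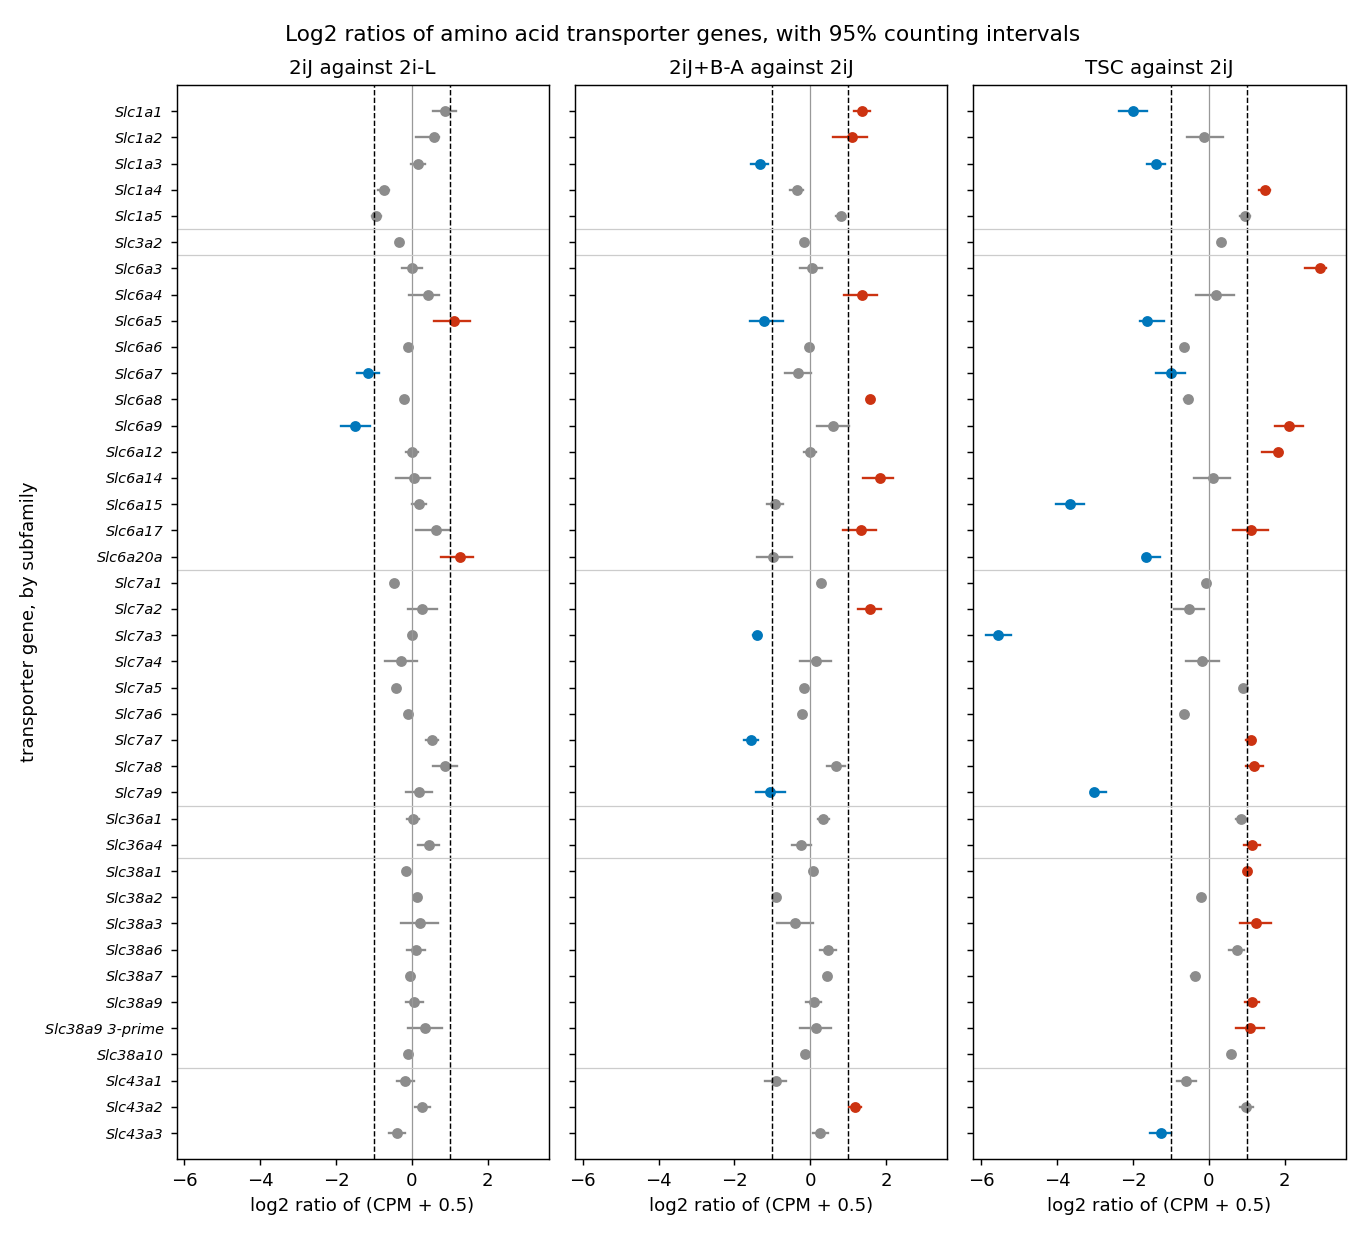
Log2 ratio of CPM + 0.5 (horizontal axis) of the same identifiers in the 3 comparisons, with 95% counting intervals as bars and dashed lines at a ratio of 2-fold. Red points are past 2-fold higher and blue points past 2-fold lower, numbering 2 and 2 on the left and 8 and 5 in the middle, and most numerous on the right.

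The stand-alone cationic carriers showed the widest range. Slc7a3 (chromosome X, 98274549 to 98281359, minus strand, NCBIM37), which encodes the arginine and lysine carrier CAT-3, stood at 67.5 CPM in 2i-L and 68.0 in 2iJ, with 25.3 in 2iJ+B-A and 0.969 in TSCs. It was level between 2i-L and 2iJ, lower in 2iJ+B-A and close to absent in TSCs. Against 2iJ the log2 ratio was -1.41 (interval -1.51 to -1.30) in 2iJ+B-A and -5.54 (-5.88 to -5.20) in TSCs. The counts were 2336 in 2iJ and 34 in TSCs, a ratio of 70.2 without the added 0.5 CPM (interval 50.1 to 102). About 20.1% of its longest transcript was also found elsewhere in the genome at up to 98.1% identity, and pairs mapping to several places were not counted.

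Slc7a1 (chromosome 5, 149138986 to 149211480, minus strand), the widely expressed carrier CAT-1, was at 110, 79.3, 96.4 and 75.4 CPM. It is named here after its values were seen, as the partner of Slc7a3, and it did not pass 2-fold in any of the 3 comparisons. Slc7a2 (chromosome 8, 41947750 to 42007662, plus strand), which encodes CAT-2, was at 2.19, 2.77, 9.13 and 1.77 CPM. It rose in 2iJ+B-A with a log2 ratio of 1.56 (1.27 to 1.85), the opposite direction to Slc7a3 in the same comparison. Of the summed CPM per kb of Slc7a1 to Slc7a4, Slc7a3 held 53.7%, 61.5%, 31.9% and 2.37%. Slc7a1 held 44.0%, 36%, 61.1% and 92.7% of it. The sum itself went from 33.2 CPM per kb in 2i-L and 29.2 in 2iJ to 21.0 in 2iJ+B-A and 10.8 in TSCs.

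**Figure D4:**
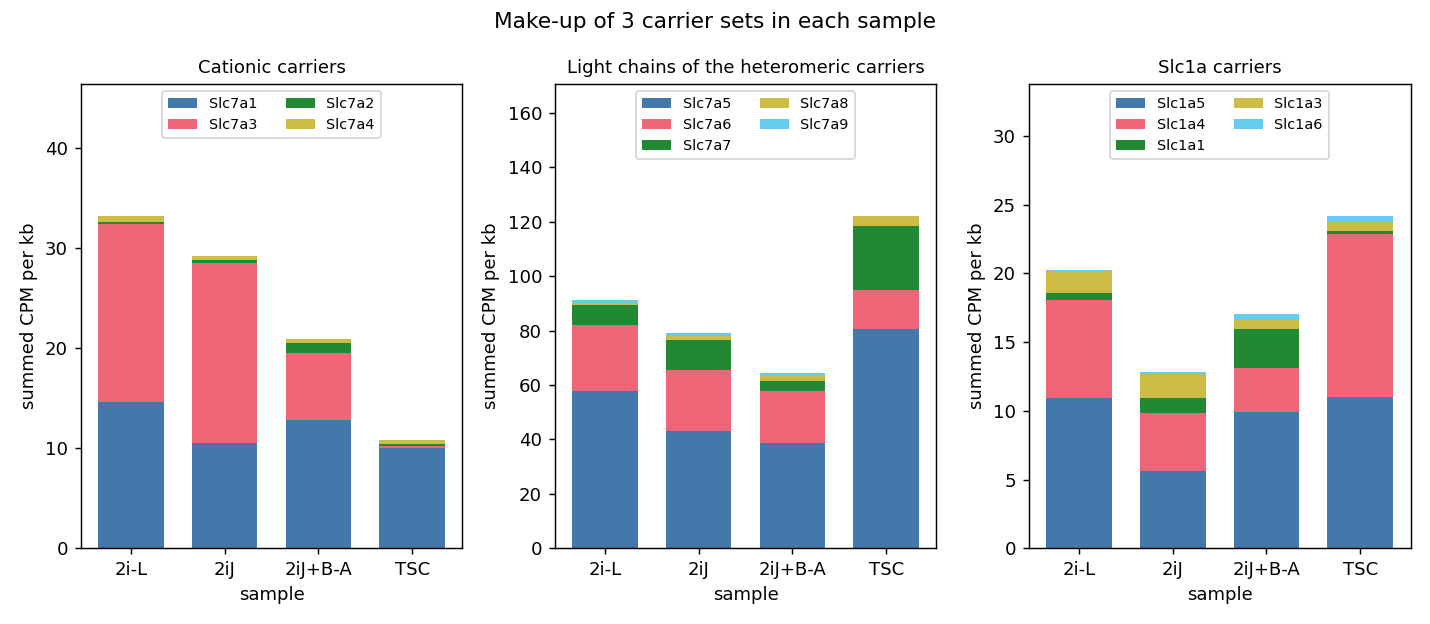
Stacked CPM per kb (vertical axis, linear from 0) of the genes of 3 carrier sets in the 4 samples, leaving out light chains and Slc1a genes at no more than 0.185 CPM per kb in any sample. In the left panel Slc7a3 goes from 61.5% of the set in 2iJ to 31.9% in 2iJ+B-A and 2.37% in TSCs, while Slc7a1 stays between 10.0 and 14.6 CPM per kb.

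The heavy chain Slc3a2 (chromosome 19, 8781372 to 8797859, minus strand), also called CD98hc, carries the light chains to the cell surface. Its levels were 224, 177, 158 and 223 CPM, and it passed 2-fold in none of the comparisons. The other heavy chain, Slc3a1, stayed under 1 CPM, with 4, 13, 13 and 33 counts. Slc7a5 (chromosome 8, 124405052 to 124431594, minus strand) encodes LAT1, the main partner of Slc3a2 for leucine and other large neutral amino acids. It was at 203 CPM in 2i-L and 151 in 2iJ, with 136 in 2iJ+B-A and 283 in TSCs. Its log2 ratio of TSCs to 2iJ was 0.90 (0.85 to 0.95), short of 2-fold, and it was past 2-fold only when 2iJ+B-A was the reference, at 1.06 (1.01 to 1.11).

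Slc7a7 and Slc7a6 encode the light chains y+LAT1 and y+LAT2, which exchange cationic for neutral amino acids. Slc7a7 (chromosome 14, 54989128 to 55032856, minus strand) was at 16.8 CPM in 2i-L and 24.5 in 2iJ, with 8.01 in 2iJ+B-A and 53.3 in TSCs. It fell in 2iJ+B-A, with a log2 ratio of -1.55 (-1.74 to -1.37), and was higher in TSCs, at 1.10 (0.99 to 1.22). The 2 samples thus lay on opposite sides of 2iJ, and TSCs stood above 2iJ+B-A by a log2 ratio of 2.66 (2.49 to 2.83). Slc7a6, with 90.8, 84.0, 71.5 and 53.5 CPM, did not pass 2-fold.

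Slc7a8 encodes LAT2, a second carrier for neutral amino acids. Its level was 2.95, 5.77, 9.45 and 13.8 CPM, and the log2 ratio of TSCs to 2iJ was 1.20 (0.97 to 1.42), or 0.53 with 2iJ+B-A as the reference. Slc7a9, the light chain that pairs with Slc3a1 for cystine and cationic amino acids, was at 3.10 CPM in 2i-L, 3.58 in 2iJ and 1.46 in 2iJ+B-A, and was listed at 0 counts in TSCs. It fell in 2iJ+B-A with a log2 ratio of -1.06 (-1.43 to -0.68), which was -0.69 with a pseudocount of 2 CPM, and was at least 41.9-fold lower in TSCs than in 2iJ, taking 3 counts as the limit. Slc7a11, the light chain of the cystine and glutamate exchanger xCT, had 5, 1, 2 and 3 counts, at or near the detection limit in all samples. Of the summed CPM per kb of the light chains, Slc7a5 held 63.1%, 54.3%, 60.1% and 66%, and Slc7a7 held 8.08%, 13.6%, 5.49% and 19.2%. The sum of light chains over Slc3a2 was 1.21, 1.33, 1.20 and 1.62.

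Promoter sequences were searched for TGATGNAAN, the core of the element bound by ATF4 with a C/EBP partner, and for the E-box CACGTG, on both strands. Of 61 member symbols, 43 were in the RefSeq table of promoters (GRCm38.p6, another build than that of the counts), with 62 windows of 250 bases before to 50 after a start. Members without a window were not searched, among them Slc7a3, Slc7a5, Slc6a6, Slc6a8 and Slc6a15. TGATGNAAN was in 4 of these windows, or 6.45%, against 3.95% of all 32851 windows, and belonged to 3 genes, Slc7a11, Slc1a4 and Slc7a7. Of the 4 windows, 2 were overlapping windows of Slc7a7 that share 1 match, which was thus counted in both. They are shown because they are the members whose windows held this motif, and their levels range from the detection limit to past 2-fold higher in TSCs. Each stretch runs 5′ to 3′ on the strand of the gene from 25 bases before the first match to the end of the last, with matches in capitals, which read as the reverse complement where the motif lies on the other strand. All 3 are on the minus strand, at chr3:50443653-50443704 for Slc7a11, chr11:20332710-20332743 for Slc1a4 and chr14:54417937-54418110 for Slc7a7.
Slc7a11: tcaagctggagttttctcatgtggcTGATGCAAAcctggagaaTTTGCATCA
Slc1a4: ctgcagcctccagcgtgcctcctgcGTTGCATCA
Slc7a7: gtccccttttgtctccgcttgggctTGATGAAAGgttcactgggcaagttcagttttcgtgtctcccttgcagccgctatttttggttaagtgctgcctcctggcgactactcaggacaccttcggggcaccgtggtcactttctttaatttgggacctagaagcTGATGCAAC
Slc7a11 held 2 matches, beginning 66 and 48 bases before the start, and Slc1a4 held 1 at 5 bases before it. For Slc7a7, 1 window held 2, at 141 and 1 bases before its start. In the other Slc7a7 window the second of these lay 243 bases before the start. A match of letters does not show a bound site. Slc7a11, with its 2 matches, had 1 to 5 counts in each sample, while Slc1a4 and Slc7a7 were both past 2-fold higher in TSCs than in 2iJ. In 2iJ against 2i-L their log2 ratios were -0.74 and 0.54, and in 2iJ+B-A against 2iJ they were -0.36 and -1.555. Any link of the motif to these levels was not tested. CACGTG was in 8 of the 62 windows, or 12.9%, against 7.15% of all windows, in Slc1a6, Slc1a7, Slc36a1, Slc38a5, Slc38a7, Slc43a1, Slc6a3 and Slc7a14. It reads the same on both strands, and no gene of the members held both motifs.

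Of the 5 Slc1a genes with at least 1 CPM, 2 were higher and 1 lower in 2iJ+B-A than in 2iJ, where 5.81% and 3.17% of all genes were. In TSCs against 2iJ, 1 was higher and 2 lower, where 19.4% and 17.6% of all genes were. Slc1a2, 1 of those higher in 2iJ+B-A, reached 1 CPM in that sample only. Slc1a1 (chromosome 19, 28909539 to 28988450, plus strand) encodes EAAC1, which takes up glutamate, aspartate and cysteine. It was at 3.28 CPM in 2i-L and 6.41 in 2iJ, with 17.1 in 2iJ+B-A and 1.23 in TSCs. It rose in 2iJ+B-A, with a log2 ratio of 1.35 (1.14 to 1.57), and was lower in TSCs, at -2.0 (-2.36 to -1.63), so that TSCs and 2iJ+B-A were at the 2 ends of its range. Slc1a3 (chromosome 15, 8584124 to 8660764, minus strand), the glutamate carrier GLAST, was at 13.4, 14.97, 5.62 and 5.38 CPM. It was lower than in 2iJ in both, with log2 ratios of -1.34 (-1.56 to -1.12) and -1.40 (-1.62 to -1.17). Slc1a2, the glutamate carrier GLT-1, had 1, 10, 45 and 8 counts and rose in 2iJ+B-A with a log2 ratio of 1.10 (0.60 to 1.504), which rests on low counts and was 0.48 with a pseudocount of 2 CPM.

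The neutral carriers of this subfamily, ASCT1 and ASCT2, exchange alanine, serine, cysteine and, for ASCT2, glutamine. Slc1a4 (chromosome 11, 20202183 to 20232716, minus strand, NCBIM37), which encodes ASCT1, was at 28.1 CPM in 2i-L and 16.6 in 2iJ, with 12.8 in 2iJ+B-A and 46.8 in TSCs. Compared with 2iJ, the TSC level was higher by a log2 ratio of 1.47 (1.33 to 1.60), which was 0.73 with 2i-L as the reference. Slc1a5 (chromosome 7, 17366695 to 17383623, plus strand), which encodes ASCT2, was at 45.3, 23.4, 41.1 and 45.8 CPM. It was lowest in 2iJ, but none of its 3 ratios involving that sample passed 2-fold. They were -0.94 (-1.06 to -0.81) for 2iJ to 2i-L, 0.80 (0.68 to 0.92) for 2iJ+B-A to 2iJ and 0.95 (0.83 to 1.07) for TSCs to 2iJ. Of the summed CPM per kb of the subfamily, Slc1a5 held 53.8%, 43.9%, 57.8% and 45.6%, Slc1a4 held 35.3%, 32.9%, 19% and 49.2%, and Slc1a1 reached 16.2% in 2iJ+B-A against 0.82% in TSCs.

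The Slc38a subfamily holds the sodium-coupled neutral carriers and lysosomal members. Slc38a2 (chromosome 15, 96517825 to 96530129, minus strand), the system A carrier SNAT2, was at 317 CPM in 2i-L and 350 in 2iJ, with 186 in 2iJ+B-A and 301 in TSCs. It was lowest in 2iJ+B-A, with a log2 ratio to 2iJ of -0.91 (-0.96 to -0.87), just inside 2-fold. Its neighbor Slc38a1 (chromosome 15, 96401849 to 96473344, minus strand), which encodes SNAT1, was at 145, 130, 136 and 263 CPM. Its ratio of TSCs to 2iJ, 1.01 (0.96 to 1.07), was just past 2-fold, and with 2i-L or 2iJ+B-A as the reference it was 0.85 and 0.96.

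Slc38a9, a lysosomal carrier that reports arginine to mTORC1, was at 9.32, 9.79, 10.4 and 22.2 CPM. The log2 ratio of TSCs to 2iJ was 1.14 (0.96 to 1.32). The second identifier with this symbol, annotated downstream of it on chromosome 13 (113523861 to 113525267, plus strand), had 1.20, 1.66, 1.89 and 4.07 CPM and a ratio of 1.08 (0.71 to 1.45), so that Slc38a9 enters the counts of identifiers under both. Slc38a3, the system N glutamine carrier SNAT3, was at 0.842, 1.05, 0.665 and 3.16 CPM and was higher in TSCs at 1.24 (0.83 to 1.65). Slc38a10 was at 129, 119, 108 and 178 CPM and did not pass 2-fold, nor did Slc38a7, a lysosomal glutamine carrier, at 59.1, 57.2, 78.2 and 44.3 CPM. Of the 8 Slc38a identifiers with at least 1 CPM, 4 were higher and 0 lower in TSCs than in 2iJ, where 19.4% of all genes were higher and 17.6% lower. In 2iJ against 2i-L and 2iJ+B-A against 2iJ, 0 were called, where 2.15% and 8.97% of all genes were. At these shares 0 of 8 does not set the subfamily apart.

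In the Slc6a subfamily the largest difference in reads was that of Slc6a8 (chromosome X, 70918489 to 70927841, plus strand), which encodes the creatine carrier. It was at 79.3 CPM in 2i-L and 68.8 in 2iJ, with 205 in 2iJ+B-A and 46.6 in TSCs. It rose in 2iJ+B-A with a log2 ratio of 1.57 (1.5 to 1.63), and the TSC level was below all 3 mESC samples. Slc6a6, the taurine carrier, was at 267, 249.4, 245 and 158 CPM, with no ratio past 2-fold. Per kb of merged exons it was the highest of the subfamily in each mESC sample. In 2iJ+B-A it was nearly level with Slc6a8, at 39.7 and 39.3 CPM per kb, an order that depends on the length taken.

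Slc6a15 (chromosome 10, 102830477 to 102882011, plus strand) encodes B0AT2, a carrier of branched-chain amino acids and proline. It was at 12.4, 14.1, 7.21 and 0.655 CPM. It was lower in TSCs than in 2iJ, with a log2 ratio of -3.66 (-4.02 to -3.28), and its ratio in 2iJ+B-A, -0.92 (-1.13 to -0.72), did not pass 2-fold. Slc6a7, the proline carrier PROT, was at 7.91, 3.26, 2.50 and 1.37 CPM. It fell in 2iJ against 2i-L, at -1.16 (-1.45 to -0.87), and TSCs lay below 2iJ at -1.01 (-1.40 to -0.61). The first ratio was -0.91 with a pseudocount of 2 CPM, and the second was under 2-fold without TMM factors (-0.95), with a pseudocount of 2 CPM (-0.64) and with 2iJ+B-A as the reference (-0.69).

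The 2 glycine carriers moved in opposite directions between 2i-L and 2iJ. Slc6a9 (chromosome 4, 117507111 to 117547803, plus strand), which encodes GlyT1, was at 4.36 CPM in 2i-L and 1.22 in 2iJ, with 2.10 in 2iJ+B-A and 6.92 in TSCs. It fell in 2iJ with a log2 ratio of -1.5 (-1.88 to -1.10) and was higher in TSCs than in 2iJ, at 2.11 (1.74 to 2.47). The first was -0.98 with a pseudocount of 2 CPM, and the TSC ratio was 0.61 with 2i-L as the reference. Slc6a5, which encodes GlyT2, had 10, 42, 9 and 2 counts, and 2iJ was the one sample above 1 CPM. Its log2 ratios were 1.11 (0.59 to 1.52) for 2iJ to 2i-L and -1.22 (-1.60 to -0.73) for 2iJ+B-A to 2iJ. TSCs, at 2 counts, were 21.5-fold below 2iJ (5.58 to 183) without the added 0.5 CPM. Slc6a20a, a proline carrier, had 5, 37, 11 and 0 counts, rose in 2iJ with 1.28 (0.78 to 1.60) and was at least 12.6-fold lower in TSCs than in 2iJ. About 58.9% of its longest transcript also matched another place at up to 93.8% identity, so that its counts are uncertain.

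Of the carriers of low level, 3 of this subfamily rose in 2iJ+B-A from under 1 CPM. Slc6a14, which carries neutral and cationic amino acids, had 6, 7, 76 and 9 counts and a log2 ratio of 1.84 (1.38 to 2.17) there. Slc6a4, the serotonin carrier, had 3, 10, 58 and 14 counts and a ratio of 1.37 (0.88 to 1.76). Slc6a17, a vesicular carrier of neutral amino acids, had 4, 16, 72 and 56 counts, with ratios of 1.32 (0.85 to 1.74) in 2iJ+B-A and 1.12 (0.63 to 1.55) in TSCs. With a pseudocount of 2 CPM the ratios of Slc6a5, Slc6a20a, Slc6a14, Slc6a4 and Slc6a17 were all under 2-fold. A further pair of carriers, higher in TSCs, is named after the values were seen. The dopamine carrier Slc6a3 had 2, 2, 3 and 132 counts and the betaine and GABA carrier Slc6a12 had 1, 1, 1 and 48, a ratio to 2iJ of 64.6 (17.5 to 539) and 47.0 (8.03 to 1890) without the added 0.5 CPM.

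Among the proton-coupled carriers, Slc36a1, found on lysosomes, was at 16.6, 16.9, 21.6 and 31.0 CPM, with a log2 ratio of TSCs to 2iJ of 0.86 (0.71 to 1.00). Slc36a4 (chromosome 9, 15514182 to 15546828, plus strand) was at 4.81, 6.73, 5.64 and 15.4 CPM, and TSCs stood above 2iJ by 1.14 (0.92 to 1.35). Both were highest in TSCs, and only Slc36a4 passed 2-fold. Slc36a2 and Slc36a3 had at most 12 counts in a sample.

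The Slc43a carriers take large neutral amino acids without exchange, except that Slc43a3 carries nucleobases. Slc43a2 (chromosome 11, 75345196 to 75391077, plus strand), which encodes LAT4, was at 10.2, 12.4, 28.6 and 25.1 CPM. It rose in 2iJ+B-A, at 1.17 (1.01 to 1.33), and its ratio of TSCs to 2iJ, 0.99 (0.83 to 1.16), fell just short of 2-fold. Slc43a3 was at 12.1, 9.12, 11.1 and 3.50 CPM and was lower in TSCs than in 2iJ, at -1.26 (-1.54 to -0.99). About 25.6% of its longest transcript also matched elsewhere at up to 92.8% identity. Slc43a1, which encodes LAT3, was at 9.26, 8.18, 4.10 and 5.24 CPM and did not pass 2-fold against 2iJ.

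Genes that respond to amino acid supply were described by a list of 25 genes of the amino acid response, centered on ATF4. In 2iJ against 2i-L, 0 were higher and 7 lower, where 1.23% and 0.918% of all genes were, 21 had a ratio below 0, and the median log2 ratio was -0.63, beside 0.005 over all genes. The regulator Trib3 went from 13.2 CPM in 2i-L to 5.18 in 2iJ, a log2 ratio of -1.27 (-1.51 to -1.03), and the secreted Stc2 from 17.2 to 3.93 CPM, at -2.0 (-2.25 to -1.75). Nupr1, at -2.18 (-2.55 to -1.80), and Vldlr, at -1.16 (-1.47 to -0.85), were also lower. Atf4 itself was at 183, 134, 123 and 271 CPM.

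For TSCs against 2iJ, 10 genes of this list were higher and 4 lower, with a median of 0.75, where 19.4% of all genes were higher and 17.6% lower. Cebpb, at 1.43 CPM in 2iJ and 14.3 in TSCs, Stc2, at 3.93 and 26.9, and Trib3, at 5.18 and 27.0, were the largest of the higher ones, with log2 ratios of 2.94 (2.61 to 3.28), 2.63 (2.39 to 2.87) and 2.27 (2.06 to 2.49). Cth, which makes cysteine from cystathionine, was lower, at 47.3 CPM in 2iJ and 7.32 in TSCs (-2.61, interval -2.80 to -2.43). In 2iJ+B-A 2 of the list were higher than in 2iJ and 0 lower, where 5.81% and 3.17% of all genes were, namely Cebpb at 2.04 (1.69 to 2.39) and Vldlr at 1.79 (1.5 to 2.08).

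Of 28 genes by which amino acids are sensed for mTORC1, 0 were called in 2iJ against 2i-L, 1 was higher in 2iJ+B-A and 5 were lower in TSCs, with medians between -0.07 and 0.02. Over all genes, 2.15% were called in 2iJ against 2i-L, 5.81% were higher in 2iJ+B-A and 17.6% were lower in TSCs. The counts of the list are near or below these shares and do not set it apart. Rragd, a Rag GTPase that recruits mTORC1 to the lysosome, was at 69.0, 92.5, 205 and 6.67 CPM. It rose in 2iJ+B-A at 1.14 (1.08 to 1.20) and was lower in TSCs at -3.70 (-3.88 to -3.52). Its relative Rragb was at 42.4, 40.2, 24.4 and 0.142 CPM, which is -5.98 (-6.22 to -5.61) for TSCs to 2iJ, while Rraga and Rragc, with 58.1 to 67.5 and 58.4 to 83.8 CPM, did not pass 2-fold. The sestrins Sesn3 and Sesn1, leucine sensors and their relatives, were lower in TSCs at -1.65 (-1.83 to -1.47) and -1.05 (-1.20 to -0.89), and Sesn2, which is on both lists, at -1.02.

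Of 11 auxiliary subunits and regulators of the transporters, 9 reached 1 CPM. None was called in 2iJ against 2i-L, 1 was higher in 2iJ+B-A than in 2iJ, and 1 was higher and 3 lower in TSCs than in 2iJ. Over all genes, 2.15% were called in 2iJ against 2i-L, 5.81% were higher in 2iJ+B-A, and 19.4% were higher and 17.6% lower in TSCs. Tmem27, the partner of the kidney and gut carriers Slc6a18 and Slc6a19, was at 0 counts in all samples. Myc, which is known to raise Slc7a5 and Slc1a5, was at 4.90, 8.10, 24.1 and 98.4 CPM, with log2 ratios to 2iJ of 1.52 (1.33 to 1.71) and 3.53 (3.36 to 3.70), while Mycn was at 96.0, 122, 73.1 and 26.2 CPM and was lower in TSCs at -2.20 (-2.30 to -2.10). Sgk1, a kinase that keeps several carriers at the cell surface, was at 366, 290, 294 and 8.49 CPM, and was lower in TSCs at -5.02 (-5.18 to -4.86), with Sgk3 at -1.04 (-1.22 to -0.87).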

How the data were processed

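RNA-seq of poly-A RNA from 4 samples, 1 per condition, was analysed. The authors deposited whole-number counts of read pairs per gene, made with STAR 2.4.2a on NCBIM37 after TrimGalore/cutadapt trimming at a quality cutoff of 20 (submitters' processing notes, which also name CASAVA 1.8.2). The ComBat step of the study is not in these counts, and the annotation release is not given in the sources used here. The reverse-stranded count was used, 29.1 to 32.1 times the opposite strand, and pairs mapping to several places are absent from it. Symbols came from the GENCODE annotation of NCBIM37, which held 37205 of the 37620 identifiers. Counts were scaled by TMM factors (0.969 to 1.035, edgeR 4.0.16, R 4.3.3). Genes with at least 1 CPM in a sample were kept, and log2 ratios used a pseudocount of 0.5 CPM, which understates changes of low genes. Transcripts were aligned with minimap2 2.31. Other steps used Python 3.11.15, numpy 2.4.6, pandas 2.3.3, scipy 1.17.1 and matplotlib 3.10.9, and the ratio script was checked on simulated counts.

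Members and gene lists were chosen with earlier results of these data known. Members were named in full if past 2-fold in either comparison among mESC samples, among the 15 largest ratios of TSCs to 2iJ at 5 CPM or more, among the 2 highest of a subfamily per kb, or a heavy chain, and list genes if past 2-fold at 5 CPM or more, up to 4 per list and comparison. Slc7a1, Slc7a11, Slc38a3, Slc38a7, Slc43a1, Slc6a3 and Slc6a12, and the list genes outside this rule, were named after their values were seen. Alternatives were DESeq2 1.42.0 size factors, no TMM factor, unstranded counts, other filters, pseudocounts, thresholds and references, and edgeR's exact test with assumed coefficients of variation of 0.2 and 0.4. Some items are counted in the totals and not reported here.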

Additional observations from a re-analysis of the deposited data

Results flagged for a closer look

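The counts on the strand opposite to the gene enter no comparison. In every sample they exceeded the counts on the strand of the gene for Slc3a1, Slc7a10 and Slc7a11, and at a few counts for Slc1a7. Slc3a1 had 155, 178, 222 and 121 opposite-strand counts in 2i-L, 2iJ, 2iJ+B-A and TSCs, beside 4, 13, 13 and 33 on its own strand. Slc7a10 had 24, 27, 41 and 64, beside 3, 4, 3 and 16. Slc7a11 had 126, 140, 207 and 58, beside 5, 1, 2 and 3. Slc1a7 had only 2, 2, 1 and 3, beside 1, 1, 0 and 0. In the annotation Slc3a1 overlaps Prepl and Slc7a10 overlaps Lrp3, both on the opposite strand, with 7197 and 752 counts over the 4 samples, and no annotated gene overlaps Slc7a11. The source of these reads was not tested.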

How the results depend on the processing

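No paired analysis was possible because each condition has 1 sample. The number of transporters past 2-fold was 4 for 2iJ against 2i-L, 13 for 2iJ+B-A against 2iJ and 22 for TSCs against 2iJ. In the same order it was 2, 7 and 13 with at least 5 CPM required, 0, 7 and 13 with a pseudocount of 2 CPM, and 0, 0 and 6 with a log2 ratio of at least 2. With an adjusted p under 0.05 in edgeR's exact test required as well, it was 0, 0 and 9 at an assumed coefficient of variation of 0.4, and 1 for the first comparison at 0.2, counts that follow from the variation assumed, since none was measured, and are no test between conditions. A pseudocount of 0.1 CPM gave 7 for the first comparison. DESeq2 size factors, no TMM factor, unstranded counts, no filter and the other references kept all counts within 1.5 times. Sums of subfamilies changed by at most 1.04 times without TMM factors and 1.04 times with unstranded counts. Of 217 alternative values of 34 single ratios past 2-fold, 31 were under 2-fold, and 1 changed sign, that of Slc6a17 in TSCs, which was -0.21 with 2iJ+B-A as the reference. Members at a few counts cannot be compared at this depth, and the variation between cultures was not measured.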

Other observations

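The remaining gene lists concern the use of amino acids inside the cell. The 20 cytosolic aminoacyl-tRNA synthetase genes load amino acids onto tRNAs. Of these, 0 were past 2-fold in 2iJ against 2i-L or in 2iJ+B-A against 2iJ, where 2.15% and 8.97% of all genes were. In TSCs 1 was lower than in 2iJ, where 17.6% of all genes were. This was Vars, with 252 CPM in 2iJ and 121 in TSCs (log2 ratio -1.05, interval -1.10 to -1.0). In 2iJ against 2i-L 19 of the 20 had a ratio below 0, with a median of -0.22, and their summed level was 5990, 5010, 4810 and 5180 CPM in the order 2i-L, 2iJ, 2iJ+B-A and TSCs, which is kept below. Of 22 other amino acid and peptide carriers, 16 reached 1 CPM, and 3 were higher and 2 lower in TSCs, which is close to or below the 19.4% and 17.6% of all genes. The mitochondrial aspartate and glutamate carrier Slc25a12 went from 24.1 CPM in 2iJ to 76.0 in TSCs (1.64, interval 1.53 to 1.75), and the mitochondrial serine carrier Sfxn1 from 48.8 to 148 CPM (1.59, interval 1.51 to 1.67). Mfsd12 was higher as well, at 1.31 (1.20 to 1.42). The peptide carrier Slc15a1 was at 22.4, 14.5, 8.17 and 0.855 CPM, and was lower in TSCs than in 2iJ at -3.47 (-3.82 to -3.10).

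Of 30 genes of amino acid and glutathione metabolism, 29 reached 1 CPM, of which 3 were higher and 10 lower in TSCs than in 2iJ, with a median of -0.63 beside 0.003 over all genes, of which 19.4% were higher and 17.6% lower. Gclc and Gclm, the subunits of the first enzyme of glutathione synthesis, Gss, the second enzyme, and Gsr, which reduces oxidized glutathione, were all lower, by log2 ratios between -1.47 and -1.12. Gss was at 75.3, 61.7, 43.1 and 21.9 CPM. Prodh, which breaks proline down, was at 10.2, 8.56, 8.89 and 38.2 CPM and was higher in TSCs at 2.09 (1.92 to 2.27). Tdh, the threonine dehydrogenase, was at 5.50, 6.38 and 3.11 CPM in the mESC samples and at 0 counts in TSCs, at least 74.6-fold lower than in 2iJ.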
